A study of Mus musculus with 231 samples.

Results

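miR-142a is represented by its 2 mature arms, miR-142a-5p and miR-142a-3p, and both were found by name in each of the 3 deposited tables. They are 2 of 1863 mature miRNAs in the training count table, of 1895 in the training CPM table and of 1817 in the validation CPM table. Small RNA was sequenced from PBMC (mononuclear cells of peripheral blood) of mice on the C57BL/6 strain carrying a conditional Cbfb-MYH11 allele with Mx1-Cre (Cbfb56M/+/Mx1-Cre, genotype label CHW), in which the fusion gene CM is switched on by poly(I:C). Mx1-Cre is driven by an interferon-responsive promoter, so recombination is not restricted to blood cells. Control mice (Ctrl, genotype labels HW, CW or WT) were littermates of the same age that received the same poly(I:C), 14 mg/kg in 7 doses starting at 6 to 8 weeks of age. For training, 53 libraries of 7 CM mice and 76 of 7 Ctrl mice were drawn before induction (month 0) and monthly up to month 10, and for validation, 60 libraries of 10 CM mice and 42 of 6 Ctrl mice at points labelled 1 to 7 and L. Sex was unbalanced in training, with 4 female and 3 male CM mice against 2 female and 5 male Ctrl mice. In validation, 5 CM mice were female and 5 male, and 3 Ctrl mice were female and 3 male. The design text of the series counts 1 CM mouse fewer and 1 Ctrl mouse more for validation than the labels, which were followed, so the arm of 1 mouse is uncertain in the validation comparisons.

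A miRNA hairpin is cut by Drosha and Dicer into a duplex of a 5p and a 3p strand, and an Argonaute protein keeps one of them as the guide while the other is usually degraded. miR-142a is made in nearly all hematopoietic lineages and hardly at all in other tissues, and it is unusual in that both arms are abundant and functional. Its loss in mice disturbs lymphoid, myeloid, erythroid and platelet development, and its locus is mutated in human blood cancers.

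The mature sequences are shown because both arms come from 1 hairpin but carry different seeds, the bases 2 to 8 that pair with target mRNAs and that are printed in capitals. Sequences and positions were taken from RefSeq (GRCm38.p6).
mmu-miR-142a-5p: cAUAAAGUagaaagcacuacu
mmu-miR-142a-3p: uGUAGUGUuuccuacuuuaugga
mmu-miR-142b: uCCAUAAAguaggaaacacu
The Mir142 hairpin lies on the plus strand of chr11:87756864-87756927, with miR-142a-5p at chr11:87756867-87756887 and miR-142a-3p at chr11:87756903-87756925. The third sequence, miR-142b, was the other entry of that name in the tables and belongs to a hairpin annotated on the opposite strand. All 20 of its bases lie within the site of miR-142a-3p and are the reverse complement of it, and an ungapped alignment of miR-142b with miR-142a-5p matched 16 of 18 bases. None of the 3 seeds was shared with another mature mouse miRNA in the table.

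Both arms were abundant in PBMC. miR-142a-5p was the miRNA of rank 4 by mean counts over the training libraries and miR-142a-3p that of rank 15. The 5p arm took between 1.55% and 22.6% of the counts of a library (median 4.35%), and the 3p arm between 0.681% and 4.78% (median 2.26%). Totals ranged from 1792809 to 7958411 counts per library, so that each library held at least 44031 counts of the 5p arm and 16680 of the 3p arm.

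Which arm was the larger depended on the deposited table. In the count table the 5p arm exceeded the 3p arm in 89.1% of the training libraries, with a median log2(5p/3p) of 1.01 and a range of -1.57 to 2.40. In the deposited CPM of the same libraries it did so in 13 libraries, or 10.1%, with a median of -0.57 and a range of -3.19 to 0.71. The 3p arm was counted alike in both, at 0.992 to 1.03 counts for each read recovered from the CPM (median 1.02). The 5p arm was not, at 1.94 to 5.71 counts per recovered read (median 3.23), and it fell from rank 4 to rank 17. miR-142b differed in the opposite direction, with 0 to 4 counts per library in the count table and 462 to 3939 recovered reads in the CPM table. The sizes were unlike: the median library value was 195528 counts against 59259 recovered reads for the 5p arm, and 1 count against 1540 recovered reads for miR-142b. Across the training libraries the Spearman correlation of miR-142b with miR-142a-5p in the deposited CPM was 0.89. That of the 5p/3p ratio between both tables was 0.84, although the ratios share their libraries and the 3p counts. It was 0.61 within the CM libraries and 0.86 within the Ctrl libraries. The reason for the unequal counting of the 5p arm was not tested, so the order of the arms in these cells is uncertain, and ratios are compared below between samples of 1 table.

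**Figure D1:**
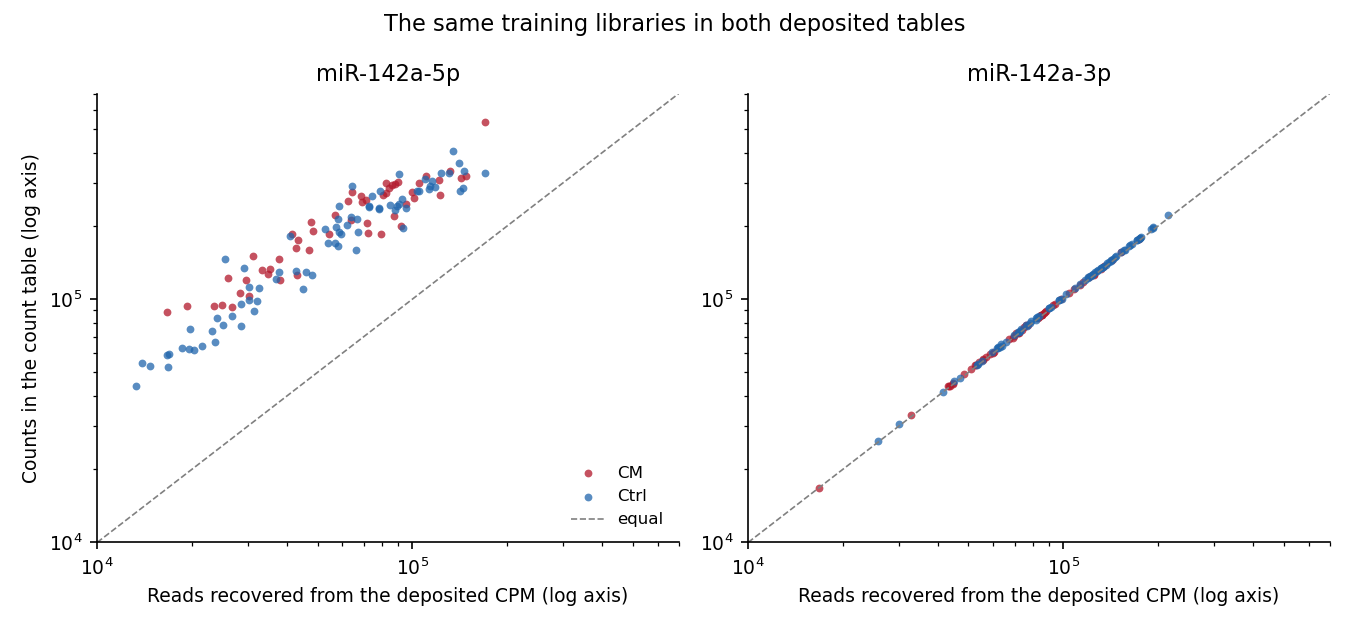
Counts of each miR-142a arm in the count table (vertical, log axis) against whole reads recovered from the deposited CPM (horizontal, log axis), 1 point per training library, with the line of equality dashed. The 3p arm follows the line at 0.992 to 1.03 counts per read, whereas the 5p arm lies above it at 1.94 to 5.71.

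The question of the training cohort was how PBMC miRNAs change after CM induction. Averaged over months 1 to 6 in each mouse, miR-142a-3p was lower in CM than in Ctrl mice, and miR-142a-5p did not pass the test. The means cover unlike months: CM mice gave 4 to 6 libraries each and Ctrl mice 6. The last libraries of CM mice 3338 and 3357 were drawn at month 4. The mean log2 CPM of the 3p arm corresponded to 13023, 17204 and 19347 CPM in the lowest, median and highest of 7 CM mice. In the 7 Ctrl mice it corresponded to 22906, 25236 and 30302 CPM. Every CM mouse thus lay below every Ctrl mouse. The log2 difference was -0.62 ± 0.10 (SE, 7 against 7 mice, limma-trend, adjusted p = 0.000364), a test that called 37.1% of 496 miRNAs. The 3p arm held rank 18 among them by p.

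For the 5p arm the corresponding levels were 37481, 48256 and 58924 CPM in CM mice and 38698, 47380 and 52882 CPM in Ctrl mice. The arms of the study overlapped fully, and the log2 difference was -0.01 ± 0.11 (SE, limma-trend, adjusted p = 0.932). The difference in the 3p arm was -0.53 to -0.67 when 1 mouse at a time was left out, and the test passed in all 14 cases. The deposited CPM gave -0.58 for the 3p arm (limma, adjusted p = 0.000305) and -0.18 for the 5p arm (adjusted p = 0.253).

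The ratio of the arms differed accordingly. The mean log2(5p/3p) of a mouse was 1.34, 1.47 and 1.78 in the lowest, median and highest CM mouse, and 0.35, 0.93 and 1.19 in the Ctrl mice. The groups did not overlap. The difference was 0.60 ± 0.11 (SE, limma over all hairpins with both arms counted, adjusted p = 0.000688), and the two-sided exact permutation p was 0.000583, the smallest that 7 against 7 mice allow. Of these hairpins 48% were called, 30 with a higher and 29 with a lower ratio in CM mice, and miR-142a held place 15 from the top. The largest increases called were in miR-31 (1.54), miR-467e (1.18) and miR-6516 (1.10), and the largest decreases in miR-340 (-1.40), miR-106b (-0.99) and miR-700 (-0.90). In the deposited CPM the difference for miR-142a was 0.40 (limma, adjusted p = 0.0100).

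**Figure D2:**
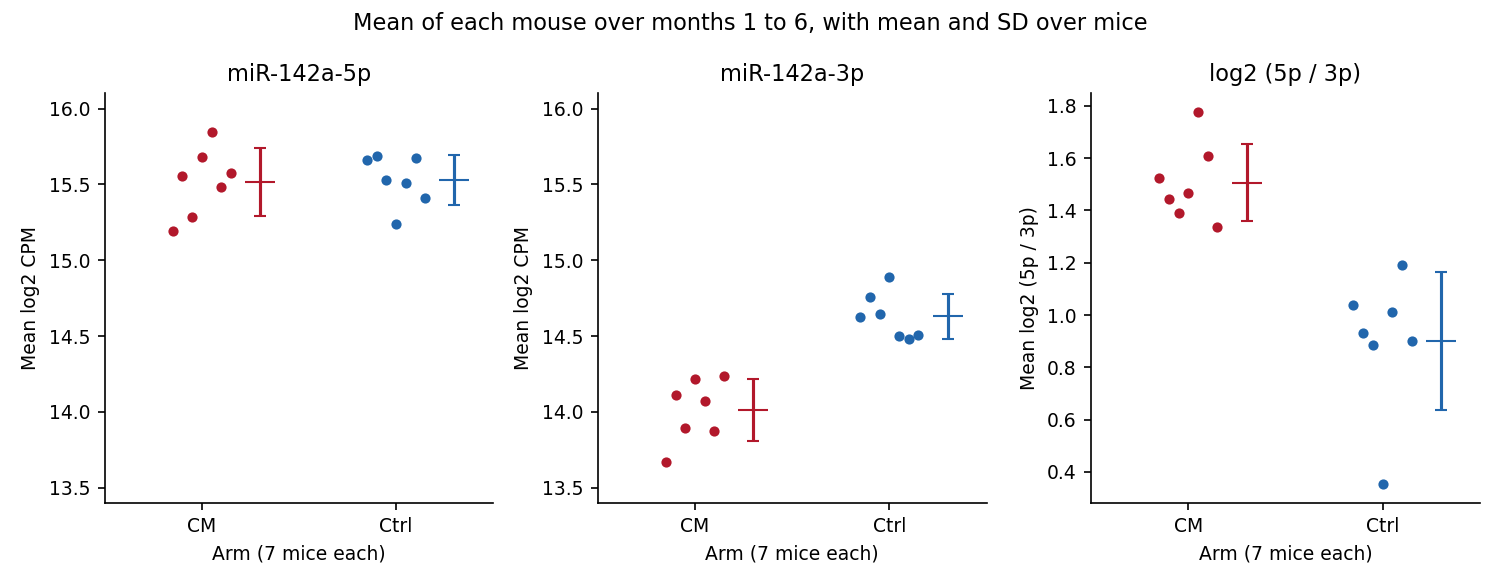
Mean log2 CPM of miR-142a-5p (left) and miR-142a-3p (middle) and mean log2(5p/3p) (right) over months 1 to 6, 1 point per mouse, with the mean and SD over 7 mice of each arm. The 5p levels overlap, the 3p levels of all CM mice lie below those of all Ctrl mice, and the CM ratios (1.34 to 1.78) lie above the Ctrl ratios (0.35 to 1.19).

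The higher ratio was already present before induction. At month 0 the log2(5p/3p) of the CM mice 3334, 3336, 3338, 3341, 3357, 3368 and 3370 was 0.89, 1.28, 0.97, 1.34, 1.11, 0.58 and 1.28. That of the Ctrl mice 3335, 3339, 3340, 3342, 3346, 3349 and 3350 was 0.69, 0.46, 0.59, 0.42, 0.71, 0.24 and 0.76. Of the CM mice 6 lay above every Ctrl mouse, and mouse 3368 lay within the Ctrl range. The difference was 0.51 (two-sided exact permutation test, p = 0.00291, adjusted over 7 months 0.0068). Each mouse's change from month 0 to its mean over months 1 to 6 was 0.06 to 1.03 in CM and -0.07 to 0.95 in Ctrl mice. These changes overlapped almost fully and differed by 0.09 between the arms (exact permutation test, p = 0.61).

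In the count table the levels of the single arms, in contrast, changed differently from month 0. At month 0 the 5p arm stood at 41138, 59074 and 74952 CPM in the lowest, median and highest CM mouse and at 35700, 43610 and 55802 CPM in Ctrl mice, and the ranges overlapped. The log2 difference was 0.36 ± 0.13 (SE, edgeR quasi-likelihood test, adjusted p = 0.261), at a month when 0.209% of 478 miRNAs were called. The 3p arm stood at 22203, 26345 and 34647 CPM in CM and at 23064, 30447 and 34654 CPM in Ctrl mice, with a log2 difference of -0.15 ± 0.12 (edgeR, adjusted p = 0.637). From month 0 to the mean over months 1 to 6, the log2 level of the 5p arm changed by -0.35 to -0.13 in the 7 CM mice, all of them lower, and by -0.05 to 0.47 in Ctrl mice. Both sets of changes did not overlap, and they differed by -0.39 (exact permutation test, p = 0.000583). The 5p levels themselves differed by 0.36 at month 0 and by -0.01 over months 1 to 6. Most of the difference in the 5p change therefore lay in the month 0 levels. The 3p arm changed by -1.17 to -0.29 in CM and by -0.48 to 0.23 in Ctrl mice, a difference of -0.48 (exact permutation test, p = 0.00991). In the deposited CPM the 5p changes overlapped between CM and Ctrl mice, and they were not tested there. These 3 tests of change were chosen after the data were seen, they are not adjusted, and CM mice entered them with 4 to 6 libraries each.

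Month by month, the 3p arm was lower in CM mice on average at each of months 1 to 6. At month 1 it stood at 9141, 18912 and 36882 CPM (lowest, median, highest) in CM and at 24128, 28480 and 45972 CPM in Ctrl mice. CM mice 3334, 3341 and 3370 lay within the Ctrl range and the other CM mice below it. Of those below, mice 3336 and 3368 stood at 15530 and 9141 CPM. Their 5p arm was the lowest of the month, at 33899 and 30823 CPM. Their erythroid miRNAs (miR-451a, miR-144 and miR-486) summed to 621976 and 422853 CPM, against 28288 to 69645 CPM in Ctrl mice. In mice 3338 and 3357, also below the Ctrl range, the sums were 59705 and 67074 CPM. The part of this in the 3p level was not tested. The log2 difference was -0.72 ± 0.27 (edgeR, adjusted p = 0.0556), where 27.5% of miRNAs were called. At month 2 it stood at 12611, 16941 and 22421 CPM in 6 CM mice and at 27340, 31106 and 37894 CPM in Ctrl mice. The groups did not overlap, and the difference of -0.89 ± 0.16 passed the test (edgeR, adjusted p = 0.00352, with 13.5% of miRNAs called). With no filter on low counts it was -0.83 (adjusted p = 0.0624), and once the fit included the G number, which the labels give each training library without explaining it, it was -1.01 (adjusted p = 0.164). CM and Ctrl libraries shared a G number at month 2 only in G3 (1 CM, 1 Ctrl) and G7 (1 CM, 2 Ctrl). The value of -1.01 rests on these few libraries. At month 3 CM mice stood at 6415, 16995 and 31935 CPM and Ctrl mice at 27828, 30236 and 34892 CPM. Only CM mouse 3336 reached the Ctrl range, and the difference was -0.67 ± 0.24 (edgeR, adjusted p = 0.0531, with 22% of miRNAs called).

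From month 4 the ranges of the 3p arm overlapped more widely. The Ctrl mice then spread from 9738 to 35411 CPM at month 4, against 7182 to 24012 CPM in 6 CM mice. The log2 difference at months 4, 5 and 6 was -0.28 ± 0.35, -0.41 ± 0.24 and -0.58 ± 0.29 (edgeR, adjusted p = 0.735, 0.345 and 0.706 in that order). The tests of these months called 0.837%, 0% and 0% of miRNAs. At months 5 and 6, where edgeR called 0 miRNAs, 21.6% of 505 and 6.98% of 444 had an unadjusted p under 0.05, DESeq2 called 18 and 0, and limma on the deposited CPM called 0 and 0. The 5p arm passed the edgeR test at none of months 0 to 6, and its log2 difference lay between -0.42 and 0.36.

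**Figure D3:**
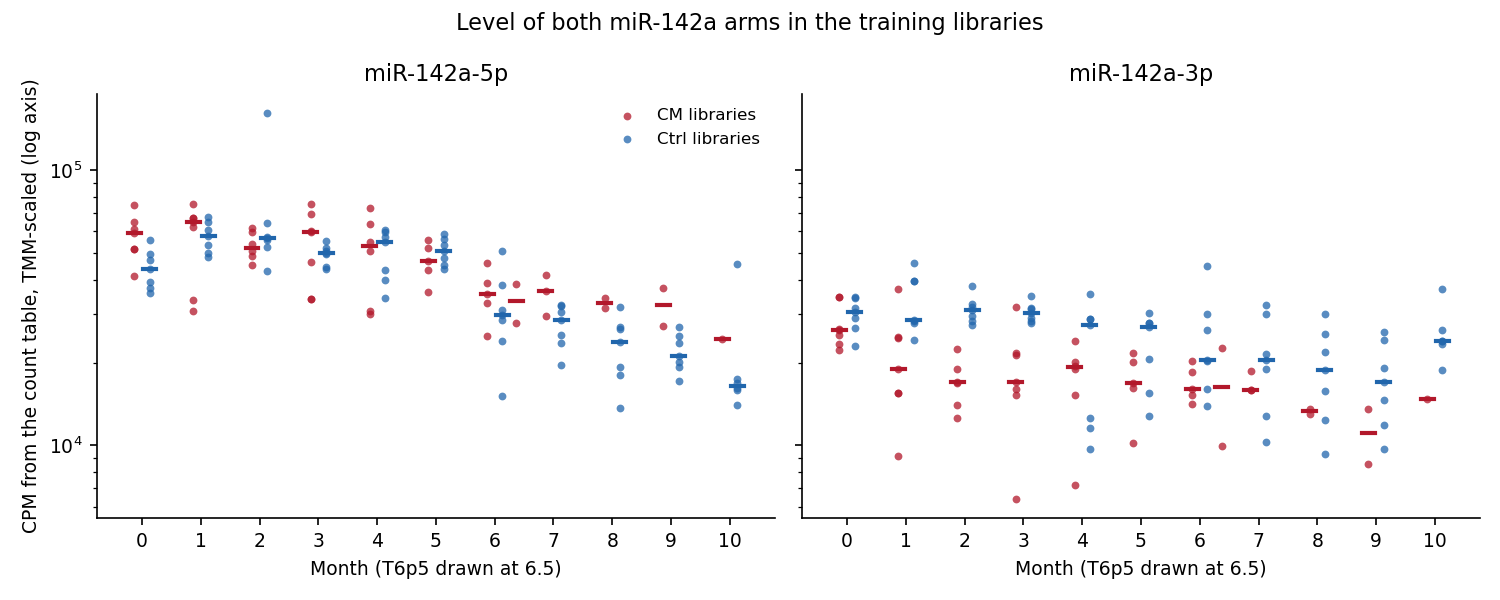
CPM of miR-142a-5p (left) and miR-142a-3p (right) from the count table after TMM scaling (log axis) by month, 1 point per training library and a bar at the median of each arm of the study. The 3p levels of CM mice lie below those of Ctrl mice at month 2 without overlap, the 5p levels overlap at each of months 0 to 6, and 1 Ctrl library stands at 161650 CPM of the 5p arm at month 2.

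The ratio of the arms was higher in CM mice on average at each of months 0 to 6. At month 1 the log2(5p/3p) was 1.03, 1.46 and 2.01 in the lowest, median and highest CM mouse and 0.33, 0.77 and 1.12 in Ctrl mice. Of the CM mice 6 lay above every Ctrl mouse. The difference was 0.70 (exact permutation test, p = 0.00233, adjusted 0.0068). At month 3 the values were 1.08, 1.60 and 2.40 against 0.54, 0.67 and 0.90. The groups did not overlap, and the difference was 0.92 (exact permutation test, p = 0.000583, adjusted 0.00408). At that month only CM mouse 3334 and Ctrl mouse 3339 shared a G number (G3), with ratios of 2.40 and 0.81. The other Ctrl libraries carried G1 or G2 and the other CM libraries G4 or G5. Arm and G number can therefore hardly be told apart at month 3, for the level or the ratio.

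At month 2 the result depended on single mice. The 6 CM mice spread from 1.26 to 1.86, and 6 of the 7 Ctrl mice from 0.43 to 1.06, all below the lowest CM mouse. The library of Ctrl mouse 3349 stood at 2.31, above every CM mouse, and held 22.6% of its counts in miR-142a-5p, where the other Ctrl libraries of that month held 3.83% to 6.36%. It also had the lowest total of all training libraries, 1792809 counts. The difference was 0.63 with it (exact permutation test, p = 0.0373, adjusted 0.0653) and 0.84 without mouse 3349 (exact permutation test, adjusted p = 0.00758). Without CM mouse 3370 it was 0.71 and also passed (exact permutation test, adjusted p = 0.0354).

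At months 4, 5 and 6 the ratios differed by 0.23, 0.29 and 0.71 and did not pass the exact permutation test (adjusted p = 0.413, 0.265 and 0.23). At month 6 Ctrl mouse 3342 stood at -1.57 and Ctrl mouse 3335 at 1.31, and the CM mice spread from 0.72 to 1.70, with 1 of 5 above every Ctrl mouse. The month 6 libraries of CM mouse 3334 (0.72, the lowest CM value) and Ctrl mouse 3335 (the highest Ctrl value) carry serial numbers out of the order of their G numbers, and whether they were exchanged was not tested. Without both mice the difference at month 6 was 0.96 (exact permutation test, adjusted p = 0.111). In the deposited CPM the difference passed at months 0 and 3 (0.56 and 0.81, exact permutation test, adjusted p = 0.0286 and 0.0204) and not at month 1 (0.26, adjusted p = 0.317). At months 0 to 6, CM and Ctrl libraries shared a G number in 15 combinations of month and G number. In the count table the mean ratio was higher in the CM libraries in 15 of 15, by 0.08 to 1.60 with a median of 0.64. In the deposited CPM it was lower in the CM library at month 0 in G4 (-0.85 against -0.80) and at month 5 in G1 (-0.49 against -0.41). It was higher in the CM libraries of the remaining combinations. At months 7 to 10 there were 5 such combinations, from CM mice 3368 and 3370. The count table ratio was higher in the CM libraries in 5 of 5, by 0.55 to 2.13. The combinations reuse the same mice across months and are not independent.

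**Figure D4:**
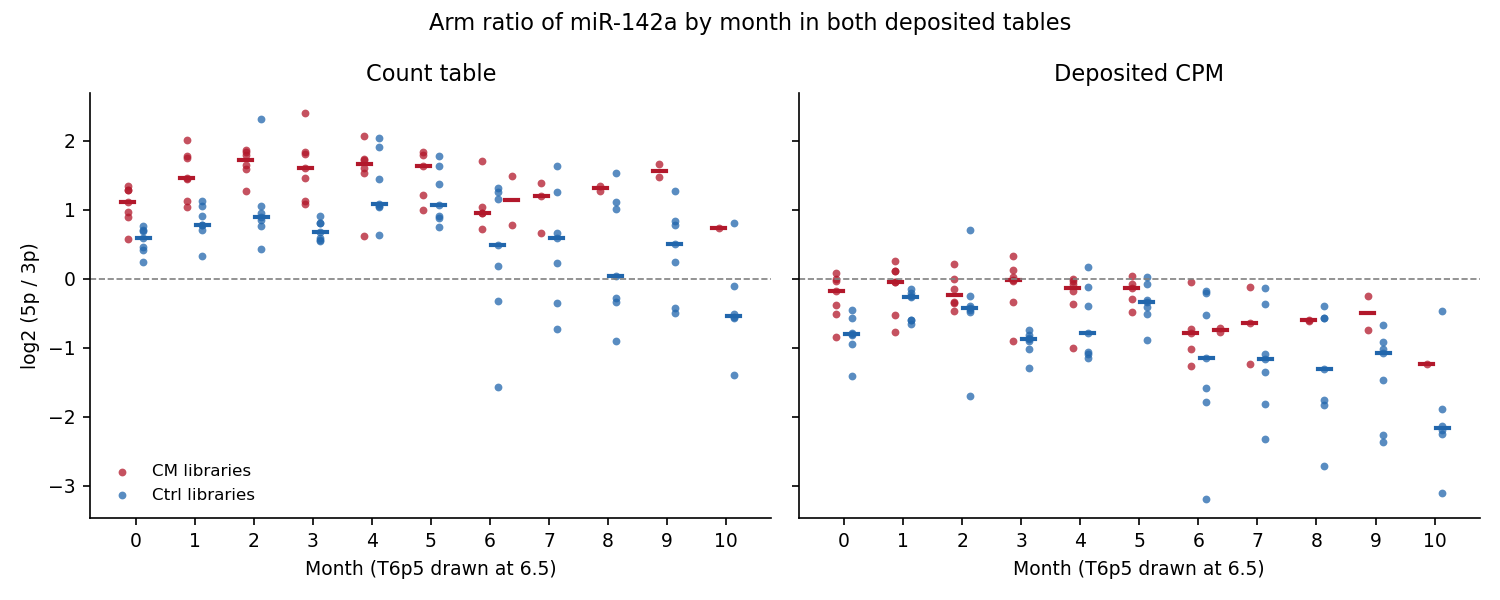
log2(5p/3p) of miR-142a by month in the count table (left) and in the deposited CPM (right), 1 point per training library and a bar at the median of each arm of the study; the dashed line marks equal arms. In the left panel CM libraries lie mostly above Ctrl libraries at months 0 to 3, and Ctrl libraries reach below 0 only from month 6.

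Relative to month 0, the ratio was higher at month 1 in 5 of 7 CM mice, by 0.45 on average (two-sided exact permutation test, p = 0.0227). With each mouse paired with itself the exact p was 0.0938. In Ctrl mice it was higher in 6 of 7, by 0.26 on average (exact permutation test, p = 0.0583, and 0.125 paired). The changes of single mice ran from -0.31 to 1.17 in CM and from -0.43 to 0.64 in Ctrl mice, and they differed by 0.19 between the arms (exact permutation test, p = 0.458). Neither arm of miR-142a passed the edgeR test for a change to month 1 in CM mice (log2 change of the 5p arm 0.05 ± 0.17, of the 3p arm -0.35 ± 0.21, adjusted p = 0.874 and 0.24). In Ctrl mice the 5p arm was higher at month 1 in 7 of 7 mice, with a log2 change of 0.35 ± 0.17 (edgeR, adjusted p = 0.49).

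Both arms were lower on average in the last CM libraries than at month 0, without passing the test in the count table. The last library of mice 3334, 3336, 3338, 3341, 3357, 3368 and 3370, drawn at months 6.5, 7, 4, 6, 4, 10 and 9, held 38759, 36519, 30744, 35508, 63893, 24413 and 37431 CPM of the 5p arm. The 3p arm stood in the same libraries at 22521, 15953, 20063, 18428, 19448, 14719 and 13551 CPM. The 5p arm was below the mouse's own month 0 level in 7 of 7 mice and the 3p arm in 6 of 7. The log2 change was -0.47 ± 0.20 for the 5p arm (edgeR, adjusted p = 0.0769) and -0.47 ± 0.19 for the 3p arm (adjusted p = 0.0577), in a comparison that called 39% of 446 miRNAs. Scaling on raw library sizes gave -0.68 and -0.70 (edgeR, adjusted p = 0.00632 and 0.00183), and DESeq2 gave -0.47 for both (adjusted p = 0.0372 and 0.0261). The deposited CPM gave a change of -0.96 for the 5p arm, which passed (limma, adjusted p = 0.00636), and -0.44 for the 3p arm (limma, adjusted p = 0.0565).

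The ratio of the last CM libraries was 0.78, 1.19, 0.62, 0.95, 1.72, 0.73 and 1.47 in the same order of mice. Its mean of 1.06 differed from the mean of 1.07 at month 0 by -0.00079 (exact permutation test, p = 0.995), where limma called 46.3% of the hairpin ratios. In the deposited CPM it fell by 0.52 on the log2 scale (exact permutation test, p = 0.0111). Whether the arm ratio of CM mice was lower late in the study therefore depended on the table used.

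In Ctrl mice miR-142a-5p was also lower late in the study, without passing the test in the count table. At month 6 the 5p arm stood at 15141, 29817 and 50860 CPM in the lowest, median and highest Ctrl mouse and was below the mouse's own month 0 level in 7 of 7 mice. The log2 change was -0.50 ± 0.21 (edgeR, adjusted p = 0.102, and 0.0541 with mouse as a block), where 20.5% of 474 miRNAs were called. The change in the deposited CPM was -0.83 and passed (limma, adjusted p = 0.0182). The 3p arm at 13946, 20446 and 44855 CPM overlapped its month 0 range, with a log2 change of -0.24 ± 0.26 (adjusted p = 0.537). The ratio changed by -0.19 (exact permutation test, p = 0.693), and its range widened from 0.24 to 0.76 at month 0 to -1.57 to 1.31 at month 6.

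In the count table, the order of the arms was mixed in the late Ctrl libraries. Of 28 Ctrl libraries of months 0 to 3, 0 had more 3p than 5p counts. Among 21 libraries of months 4 to 6 there were 2, and among 27 of months 7 to 10 there were 12, from all 7 Ctrl mice. At month 10 the 6 Ctrl libraries stood at -1.40, -0.57, -0.56, -0.51, -0.11 and 0.80, the last from mouse 3335. The 8 CM libraries of months 7 to 10, from 3 mice, all had more 5p than 3p counts and a log2(5p/3p) of 0.67 to 1.66. In the deposited CPM, by contrast, the 3p arm was the larger in every library of months 7 to 10, with a log2(5p/3p) of -3.11 to -0.13 in Ctrl and -1.24 to -0.11 in CM libraries. With 3 CM mice left at month 7 and 1 at month 10, no test between the arms was made for these months. The same Ctrl mouse moved in both directions between months: mouse 3342 stood at -1.57, 0.23, 1.53, 1.27 and -0.57 in months 6 to 10.

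Other blood miRNAs give the setting of these levels. Among 12 miRNAs of known roles in blood cells, the limma test of the mouse means called miR-126a-3p (log2 difference 1.60) and miR-144-3p (0.70) higher and miR-150-5p (-0.52) lower in CM mice. These are 3 of 12, beside 18.8% of all 496 miRNAs called higher and 18.3% called lower, the background for each list that follows. The median log2 difference of the 12 was -0.13, beside -0.04 over all 496 miRNAs. The lymphocyte list (both arms of miR-150 and of miR-342) had 2 of 4 members lower and 0 higher, and its summed level was 26696 to 52764 CPM in CM and 44047 to 67587 CPM in Ctrl mice. The erythroid list (miR-451a, miR-144 and miR-486) had 4 of 5 members higher and 0 lower, with 50142 to 213146 CPM in CM and 56025 to 111212 CPM in Ctrl mice. The myeloid list (both arms of miR-223) had 0 of 2 called, with 5781 to 9822 CPM in CM and 4555 to 13578 CPM in Ctrl mice. The progenitor list had 2 of 5 higher, both arms of miR-126a, at 2030 to 3211 CPM in CM and 1719 to 2825 CPM in Ctrl mice. Its other members, miR-125a-5p, miR-99b-5p and miR-130a-3p, had log2 differences of -0.39, -0.22 and -0.13 and were not called.
A list of miRNAs of muscle, liver and vessel wall had 1 of 5 tested members higher (miR-133a-3p, 1.99) and summed to 307 to 2641 CPM in CM and 328 to 905 CPM in Ctrl mice. Its other tested members were not called: miR-1a-3p stood at 1.28, miR-122-5p at -0.45, miR-143-3p at -0.74 and miR-145a-5p at -0.91. The part of all these lists in the lower 3p level was not tested. In bulk PBMC, fewer cells of a type and less RNA per cell cannot be told apart.

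Over all training libraries, the log2 level of miR-142a-5p had a Spearman correlation of 0.71 with the summed lymphocyte list and -0.50 with the erythroid list, and miR-142a-3p of 0.61 and -0.42. With the progenitor list it was -0.35 for the 5p arm and -0.64 for the 3p arm. The ratio of the arms had -0.01 with the lymphocyte and the erythroid list, 0.25 with the progenitor list, 0.34 with the myeloid list and 0.26 with the total count of the library. These are descriptions over libraries that share mice and scaling. Both arms tracked each other only loosely (Spearman correlation 0.37). Among 172 other miRNAs with a mean of at least 100 CPM, those most like miR-142a-5p were miR-363-3p (0.80), miR-1843b-5p (0.80) and miR-27b-3p (0.78), and the 3p arm held place 47. Those most like miR-142a-3p were miR-29c-3p (0.89), miR-500-3p (0.88) and miR-33-5p (0.75), and the 5p arm held place 35. Among the other hairpins with both arms counted, the arm ratios of 19 had a correlation above 0.5 with that of miR-142a and 19 one below -0.5.

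The validation cohort was deposited as CPM only, and its depth limited what could be read from it. At point 5, the 12 libraries held 31488 to 165183 recovered reads of the 5p arm and 32391 to 293542 of the 3p arm. In the 88 libraries of the other points whose reads could be recovered, these numbers were 3 to 51 and 2 to 171, and miR-5099 took 36.7% to 98.8% of the reads. A CM library of point 3 held 3 reads of each arm, among the fewest, so that its 5p share of both arms has an exact (Clopper-Pearson) 95% interval of 11.8% to 88.2%, covering counting error only.

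At point 5 neither arm passed the test between CM and Ctrl mice. The 5p arm stood at 115539, 246882 and 452886 CPM in the lowest, median and highest of 6 CM libraries and at 107097, 164034 and 424664 CPM in 6 Ctrl libraries. The 3p arm stood at 118853, 408785 and 863230 CPM and at 148314, 290862 and 754659 CPM. The ranges overlapped almost fully, and the log2 differences were 0.32 ± 0.37 and 0.22 ± 0.43 (limma-trend, adjusted p = 0.955 and 0.979). Of 930 miRNAs 0% were called there by limma, with 54 at an unadjusted p under 0.05, and edgeR on 478 miRNAs of recovered reads also called 0. The log2(5p/3p) ran from -0.93 to -0.04 in CM and from -0.93 to -0.47 in Ctrl libraries, a difference of 0.11 (exact permutation test, p = 0.565, adjusted 0.613). The CM library of mouse 2718 was the highest at -0.04, with the other 5 CM libraries at or below -0.67.

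At the shallow points the ratio was higher on average in CM libraries at points 1, 2, 3 and 7, by 0.22, 0.75, 0.79 and 1.06, and lower at points 4 and 6, by -0.68 and -0.25. None passed the exact permutation test (adjusted p = 0.613, 0.26, 0.26, 0.489, 0.613 and 0.613 at points 1, 2, 3, 7, 4 and 6). Differences in level were within -0.99 to 0.30 log2 units for both arms and did not pass limma at any point (smallest adjusted p = 0.597). On recovered reads of point 2, where 9 miRNAs could be tested and 4 were called, edgeR gave -1.02 for the 3p arm (adjusted p = 0.00263). The limma test of the same point gave -0.45 for the 3p arm (adjusted p = 0.597, with 4 of 144 miRNAs called). At point L, sampled in 5 CM mice, the ratio was -2.89, -2.63, -3.16, -1.98 and -1.52 in mice 2690, 2708, 2718, 2719 and 2731. It was -1.45, -1.63, -1.51, -0.33 and -0.22 in the same mice at point 1. The value at L was the lower in 5 of 5 mice, with 3 to 36 reads of the 5p arm and at least 27 of the 3p arm, and 5 pairs cannot reach an exact p of 0.05.

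**Figure D5:**
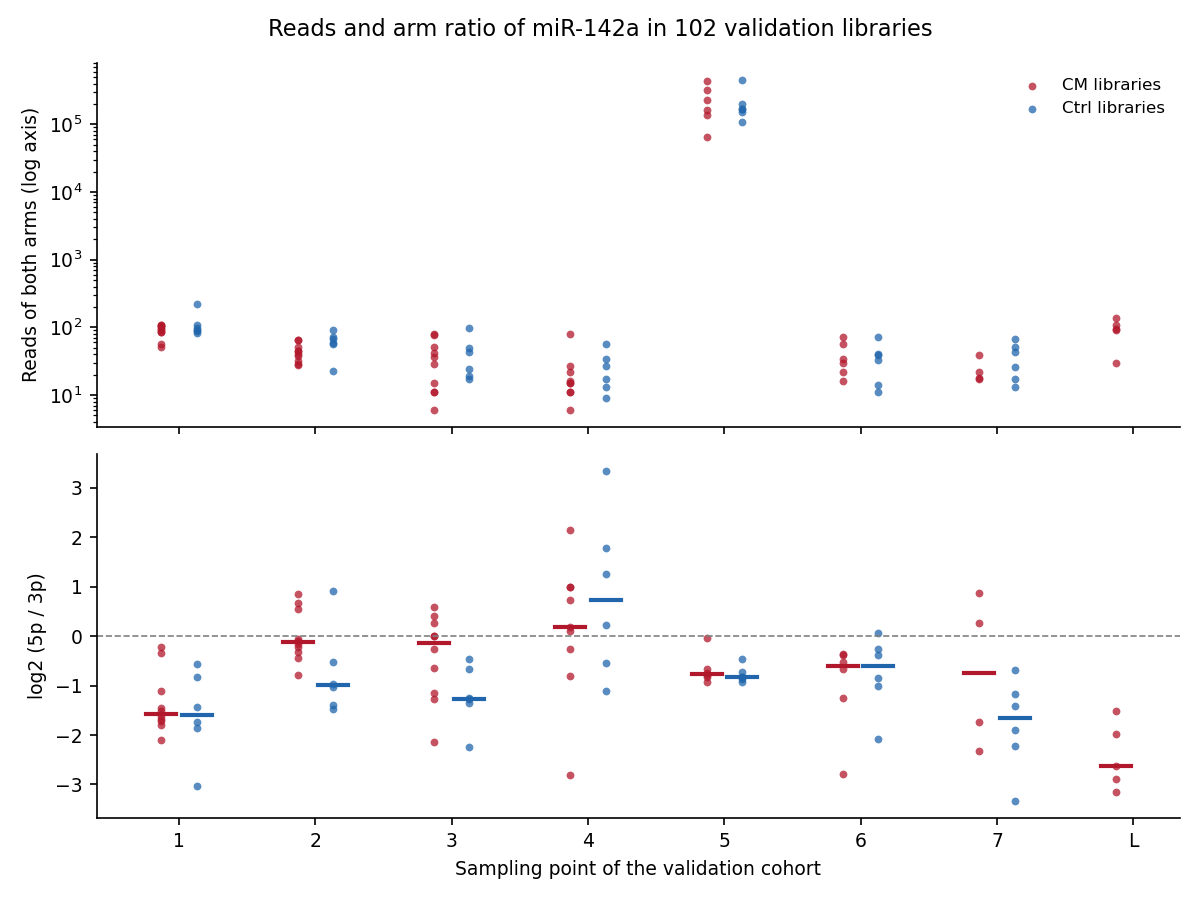
Reads of both miR-142a arms (top, log axis) and log2(5p/3p) (bottom) at each sampling point of the validation cohort, 1 point per library, with a bar at the median of each arm of the study. Libraries of point 5 hold at least 63879 reads of miR-142a and span -0.93 to -0.04, whereas the other points hold at most 222 reads and spread from -3.34 to 3.35. Reads of 2 libraries of point 7 are estimates from few low values.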

How the data were processed

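Per the labels, total RNA of PBMC was made into small RNA libraries with inserts of 17 to 35 bases. The authors trimmed reads with cutadapt, aligned them with Bowtie and scaled them with edgeR. The build is GRCm38 in the submitters' processing notes and mm9 in the study's methods, so positions printed here come from RefSeq alone. The deposited counts are whole numbers per mature miRNA from mirTOP, at settings not given in the sources used here. The deposited CPM tables were made by the authors with TMM scaling and do not sum to 1000000, so they were treated as a signal. Their low values were whole multiples of 1 read in 100% of cases (tolerance 0.1 reads), which gave reads for 129 training and 100 validation libraries. The other 2 validation libraries had too few low values and stayed out of the count test on recovered reads.

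Groups, months and mice were taken from the labels. The members and lists were chosen with earlier results of these data known. Counts were tested with edgeR 4.0.16 (quasi-likelihood, TMM, filterByExpr) at each month, mouse means of log2 CPM (prior count 2) and of log2((5p + 0.5)/(3p + 0.5)) with limma 3.58.1, and single ratios with two-sided exact permutation tests. DESeq2 1.42.0 was an alternative. Validation CPM was tested with limma-trend on log2(CPM + 1), a scale on which fold changes of low miRNAs are understated. p-values were adjusted by Benjamini-Hochberg over all miRNAs or hairpins tested, and those of single ratios over 7 months or points. The SE of an edgeR log2 difference is its size divided by the square root of F. Libraries of 1 mouse carry the same number, which pairs them, and mouse was a block in an alternative. The correlation of deviations between paired libraries lay between -0.33 and 0.15. The fits were tested on simulated data with 200 changed miRNAs. Named were both arms, other entries of the miR-142 name, miRNAs of the same seed and the 3 most correlated miRNAs per arm. Members of the blood list and of the cell type lists were also named, as were the 3 hairpins with the largest called changes each way. The month 6 libraries of mice 3334 and 3335 carry serial numbers out of the order of their G number, and an alternative left both mice out.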

Additional observations from a re-analysis of the deposited data

Results flagged for a closer look

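7 measurements stood far from the other libraries of their group by Dixon's test, which is 6.67% of the groups of 4 to 10 that were compared, where chance gives about 5%. At month 2 the Ctrl library of mouse 3349 had a log2(5p/3p) of 2.31 and a log2 level of miR-142a-5p of 17.30, both the highest of its group. At month 10 the Ctrl library of mouse 3335 had a log2 level of miR-142a-5p of 15.48, above the other 5 Ctrl libraries. At month 4 the CM library of mouse 3338, its last, had the lowest ratio of its group at 0.62. Among the mouse means over months 1 to 6, Ctrl mouse 3342 had the lowest ratio at 0.35. In the validation cohort, the CM library of mouse 2718 at point 5 had the highest ratio of its group at -0.0408, and the CM library of mouse 2684 at point 6 the lowest at -2.78.

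In 2 measures of the count table the change from month 0 to months 1 to 6 differed between CM and Ctrl mice. The difference was -0.39 for the log2 level of miR-142a-5p and -0.48 for that of miR-142a-3p (exact permutation tests, p = 0.000583 and 0.00991). Without mouse 3349 they were -0.34 and -0.53 (p = 0.00117 and 0.00816, exact permutation tests). In the deposited CPM the 5p changes overlapped between CM and Ctrl mice. The level of miR-142a-5p was higher in CM mice at month 0 on average (0.36 on the log2 scale) and differed by -0.01 over months 1 to 6. Most of the difference in the 5p change therefore lay in the levels before induction.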

How the results depend on the processing

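Across 60 results and 1082 alternative values, 1038 values stayed on the same side of the threshold, 11 no longer passed and 33 passed newly. The sign did not turn for a result that passed its test, but 83 values of results that did not pass changed sign. The lower 3p level of the CM mouse means passed under each of its 23 alternatives, and their higher ratio under each of its 21 except the change from month 0, where the difference was 0.092 (exact permutation test, p = 0.61). The monthly and over-time calls depended more on the setting, and the cause was not tested. For the 3p arm at month 1, CM against Ctrl, DESeq2 gave -0.64, deposited CPM with limma -0.77 and edgeR on recovered reads -0.71, and these passed. At month 2 the 3p difference did not pass with no low count filter (-0.83) or with the G number in the model (-1.01), which rests on the libraries of G3 and G7. At month 3 it passed with DESeq2 (-0.70), deposited CPM (-0.84), recovered reads (-0.68), sex as a covariate (-0.77) and without mice 3334 and 3335 (-0.52). With the G number in the model it was -2.09 at month 3. Only 1 CM library (mouse 3334) and 1 Ctrl library (mouse 3339) shared a G number there, so that value rests on 1 pair. The G number could not be fitted at month 4.

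For the last CM libraries against month 0, DESeq2 (-0.47 for both arms), raw library sizes (-0.70 for 3p and -0.68 for 5p) and leaving out mouse 3334 (-0.63 and -0.58) passed, and deposited CPM passed for the 5p arm (-0.96) and for the ratio (-0.52). Deposited CPM also passed for the 5p arm of Ctrl mice at month 6 (-0.83) and for their ratio at month 1 (0.44). It did not pass for the ratio at month 1 between arms (0.26), or in CM mice from month 0 to 1 (0.14). That CM change also did not pass with mouse as a replicate block (0.45) or without mice 3334 and 3335 (0.43), and the block changed no other call. Alternatives chosen after the data were seen were the change from month 0 in each mouse (-0.39 for 5p, -0.34 without mouse 3349, and, for the ratio, the value given above), leaving out the month 2 library of mouse 3349, values within a G number, and recovered reads, which gave -1.02 for the 3p arm at validation point 2. That fit of point 2 called 4 of 9 miRNAs.

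With 1 mouse left out at a time, the 3p difference ran from -0.93 to -0.60 at month 1, passing without CM mouse 3341, and from -0.85 to -0.52 at month 3, passing without CM mouse 3334 or 3336. The month 2 ratio ran from 0.53 to 0.84, passing without CM mouse 3370 or Ctrl mouse 3349. The change in the last CM libraries ran from -0.63 to -0.42 (3p, passing without mouse 3334) and from -0.58 to -0.45 (5p, passing without 3334 or 3357). In CM mice from month 0 to 1 the 3p change ran from -0.63 to -0.20, passing without mouse 3341, and that of the ratio from 0.33 to 0.57, not passing without 3334, 3338, 3357 or 3368. The ratio change in Ctrl mice ran from 0.19 to 0.37, passing without mouse 3350. The ratio difference at validation point 2 ran from 0.60 to 1.08, passing without Ctrl mouse 2702. Outside point 5, validation libraries with recovered reads held at most 222 reads of both arms, which limits what they can show. Other tools moved some counts of called miRNAs by over 1.5 times. DESeq2 called 52 higher and 49 lower at month 2 and recovered reads 53 and 54, against 37 and 28 with edgeR. At month 4 they called 20 and 10 against 4, and at month 5 DESeq2 called 18 against 0. At month 0 edgeR called 1, DESeq2 4, and limma on deposited CPM and recovered reads 0 each, with 73 and 67 at an unadjusted p under 0.05. For Ctrl mice at month 1 against month 0, edgeR called 5, DESeq2 15 and limma on deposited CPM 2.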
